A study of Mus musculus with 15 samples.

Results

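Polycomb repressive complex 1 (PRC1) was followed here through 10 of its subunit genes: Bmi1, Pcgf1, Pcgf2, Pcgf6, Ring1, Rnf2, Cbx6, Cbx7, Phc1 and Rybp. They were found by symbol among 55228 listed genes, and all 10 were present and passed the minimum level for testing in every comparison. They were selected on measured values of these libraries, since Bmi1 was higher than control at all 3 knockdown times. Levels of these genes in knockdown against control cells are therefore given as a description and without p-values, and nothing is read from how many passed a threshold there, whereas tests are given for comparisons within the control cells, within the knockdown cells, and for genes outside the selection. The lists of other genes were also chosen with earlier results of these data known, so their counts are no independent support.

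PRC1 is a chromatin complex that places ubiquitin on histone H2A and helps to keep developmental genes silent. Its catalytic centre is a RING protein, Ring1 or Rnf2, bound to 1 of the PCGF proteins, among which Bmi1 is also called Pcgf4. Canonical complexes with Bmi1 or Pcgf2 carry a CBX protein, which reads the H3K27me3 mark of PRC2, and a PHC protein, whereas variant complexes carry Rybp or Yaf2 and are recruited in other ways. BAF complexes, to which Smarcb1 belongs, are known as antagonists of polycomb proteins on chromatin. In embryonic stem cells, however, both also appear to act together in repressing genes of differentiation.

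RNA was sequenced from 81K1 cells, a clonal mouse embryonic stem cell (mESC) line based on OG2 in which a cassette in the Rosa26 locus expresses an shRNA against Smarcb1 when doxycycline is present. The knockdown (kd) cells received 1 µg/ml doxycycline daily for 48 h, 72 h or 240 h, and the control (ctrl) cells, of the same line and with the same cassette, were left untreated and sampled at 48 h and 240 h. Each of the 5 groups had 3 libraries, and the 72 h kd cells were compared with the 48 h ctrl cells because 72 h had no control of its own. Doxycycline and Smarcb1 loss always came together and cannot be told apart. The 48 h and 72 h kd comparisons share their ctrl libraries. The sources do not say whether the libraries of a group came from separate cultures, and the p-values measure only the spread between these libraries.

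The libraries held 11074998 to 14515300 reads. Smarcb1 reached 3.31 to 3.93 FPKM (reads per kilobase of the whole gene span, scaled to library size) in the 6 ctrl libraries and 0.503 to 0.820 FPKM in the 9 kd libraries. Knockdown left 18.0%, 15.7% and 19.3% of it after 48 h, 72 h and 240 h. All 7 embryonic stem cell markers reached a mean of 0.5 FPKM in each group, with a summed level of 888 to 1080 FPKM. Markers of neural progenitors summed to 23.7 to 25.6 FPKM in ctrl libraries and to 27.8 to 40.3 FPKM in kd libraries, with 4 of 5 markers at 0.5 FPKM or more in each group. Trophoblast markers summed to 9.11 to 9.85 FPKM at 48 h ctrl, 5.89 to 6.40 FPKM at 48 h kd and 16.9 to 17.4 FPKM at 72 h kd, while at 240 h they summed to 7.73 to 8.42 FPKM in ctrl and to at most 12.5 FPKM, above every ctrl library, in kd cells. Of these 6 markers, 2 reached a mean of 0.5 FPKM in each ctrl group and 1 in each kd group. The kd sums thus rested mainly on 1 marker. Fibroblast, primitive endoderm and mesoderm markers each summed to at most 1.57 FPKM in any library, with Prrx1 and Kdr at 0 in all 48 h kd libraries. In such bulk RNA, fewer cells of a type and less RNA per cell cannot be told apart. The library 48 h kd replicate 2 stood apart from the others by its share of mitochondrial reads, 2.53% against 0.507% to 1.95%. At the other end of this range stood 240 h ctrl replicate 3 with 0.507%, against 0.931% or more elsewhere. Both differed most from their own groups, the chi-square of their read counts over genes, divided by its degrees of freedom, being 9.14 to 11.3 and 5.02 to 8.89, against 1.30 to 4.45 for all other pairs. Leaving out 240 h ctrl replicate 3 moved the 240 h values of the 10 subunits by at most 0.08 on the log2 scale. The part of these shifts in the results below was not tested, and 48 h values that 48 h kd replicate 2 raised most are also given without that library.

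Since Bmi1 and its upstream neighbour Commd3 were both higher in kd cells, and Cbx6 was lower, the 250 bases before the RefSeq start of these 3 genes are shown (GRCm38.p6, 5′ to 3′ on the gene's strand). Capitals mark CACGTG, the E-box to which basic helix-loop-helix factors such as Myc and Max can bind. The Bmi1 stretch lies at chr2:18676768-18677017 on the plus strand, the Commd3 stretch at chr2:18672185-18672434 on the plus strand and the Cbx6 stretch at chr15:79834334-79834583 on the minus strand. The RefSeq starts of Commd3 and Cbx6 lie inside the spans listed for these genes.
Bmi1: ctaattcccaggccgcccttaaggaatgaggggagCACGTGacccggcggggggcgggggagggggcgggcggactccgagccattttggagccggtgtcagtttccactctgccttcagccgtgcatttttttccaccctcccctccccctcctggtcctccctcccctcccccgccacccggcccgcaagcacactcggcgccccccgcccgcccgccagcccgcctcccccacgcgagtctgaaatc
Commd3: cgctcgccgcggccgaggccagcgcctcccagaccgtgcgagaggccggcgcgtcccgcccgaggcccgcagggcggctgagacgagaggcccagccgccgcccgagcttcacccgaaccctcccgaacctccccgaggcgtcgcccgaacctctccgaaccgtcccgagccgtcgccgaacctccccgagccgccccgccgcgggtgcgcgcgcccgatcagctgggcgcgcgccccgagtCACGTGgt
Cbx6: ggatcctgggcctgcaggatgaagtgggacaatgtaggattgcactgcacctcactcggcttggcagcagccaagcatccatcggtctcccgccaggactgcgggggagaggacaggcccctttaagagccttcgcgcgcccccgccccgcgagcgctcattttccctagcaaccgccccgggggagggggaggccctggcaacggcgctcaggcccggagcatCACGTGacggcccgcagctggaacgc
The match began 215 bases before the start of Bmi1, 8 bases before that of Commd3 and 26 bases before that of Cbx6. RefSeq promoters were matched for 8 of the 10 subunit genes, and CACGTG, which reads the same on both strands, was found in 3 of them, those of Bmi1, Pcgf2 and Cbx6. Of all 32851 promoters of the same length, 6.02% held it, and of the 5896 promoters with at least 20 CpG dinucleotides 10.1% did. The Bmi1, Commd3 and Cbx6 stretches held 21, 45 and 20 CpG dinucleotides, against a median of 6. The Pcgf2 stretch held 5, so that the share of 10.1% does not apply to it. The stretch of Pcgf6, which was also higher in every kd library, held no match. Of the E2F motifs TTTGGCGC, TTTCCCGC and TTTCGCGC, searched on both strands and present in 1.53% of promoters in any form, none occurred in these windows of the subunit genes. These matches describe letters and not binding.

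**Figure D1:**
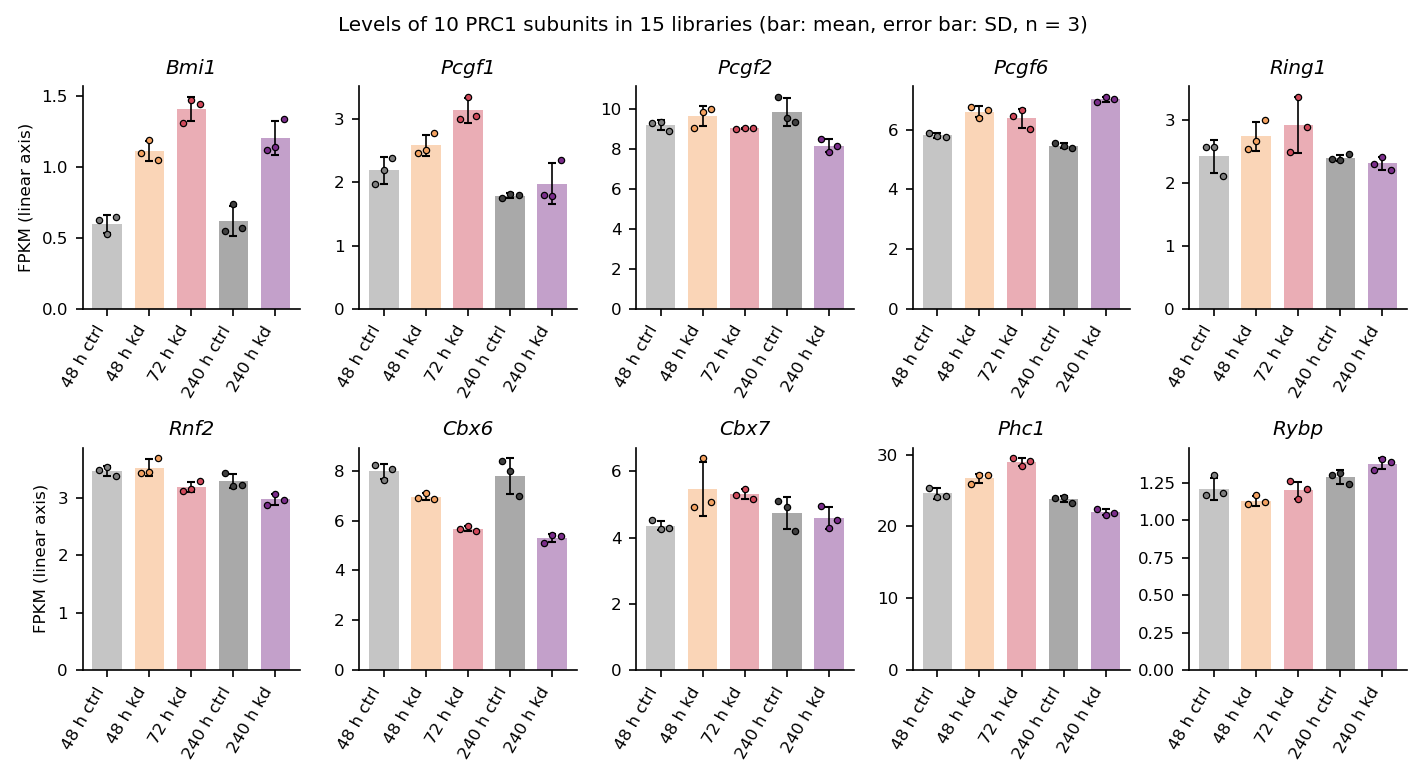
Levels of the 10 PRC1 subunits by group; each panel plots FPKM on a linear axis from 0, points are libraries, bars the mean and error bars the SD of 3 libraries. Bmi1 lies between 0.525 and 0.735 FPKM in the 6 ctrl libraries and between 1.05 and 1.47 FPKM in the 9 kd libraries.

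Bmi1 (chr2:18677018-18686629, plus strand), the PCGF subunit best known for keeping adult stem cells dividing, was higher in kd than in ctrl cells at each time. Its level in the 48 h ctrl libraries was 0.622, 0.525 and 0.643 FPKM (82, 56 and 70 reads), and in the 240 h ctrl libraries 0.544, 0.735 and 0.569 FPKM (65, 87 and 70 reads). In kd cells, it was 1.10, 1.19 and 1.05 FPKM at 48 h (112 to 134 reads), 1.31, 1.47 and 1.44 FPKM at 72 h (161 to 184 reads) and 1.12, 1.14 and 1.34 FPKM at 240 h (142 to 175 reads). Every kd library thus lay above every ctrl library, while the ctrl groups of both times overlapped, as did the 240 h kd group with the 48 h and the 72 h kd groups. No other listed gene overlaps the Bmi1 span. The ratio of group means was 1.87 at 48 h, 2.35 at 72 h and 1.95 at 240 h. On the log2(FPKM + 0.1) scale, which understates changes of low genes, the fold change was 0.80 (SE 0.09), 1.11 (SE 0.09) and 0.87 (SE 0.13), n = 3 in each group. Without 48 h kd replicate 2 the 48 h value was 0.76 (SE 0.10). Bmi1 was near the lower limit of what was tested, and a pseudocount of 1 FPKM reduced its log2 fold changes to 0.41, 0.59 and 0.45, below the fold threshold of 0.58 at 48 h and 240 h.

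**Figure D2:**
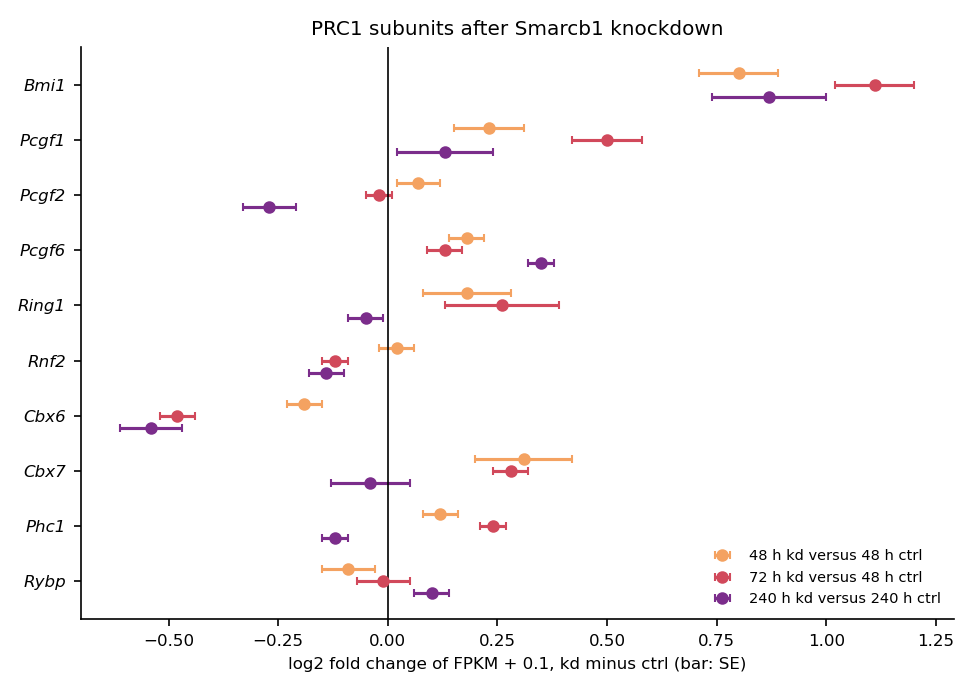
Log2 fold change of FPKM + 0.1 (kd minus ctrl, horizontal axis) for the 10 subunits at 48 h, 72 h and 240 h; bars are SE over 3 libraries in each group. Bmi1 lies at 0.80, 1.11 and 0.87, and Cbx6 is to the left of 0 at each time, at -0.19, -0.48 and -0.54.

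Of the 10 subunits, 1 (Bmi1) was past both thresholds (adjusted p-value under 0.05 and absolute log2 fold change above 0.58) in each of the 3 kd comparisons, a count that its selection on these comparisons set and that is no test of it. At 48 h it was 0 with the replicate number as a block. Over all genes tested, 3.99%, 13.5% and 8.91% were called at 48 h, 72 h and 240 h. Kd and ctrl libraries did not overlap for 6 subunits at 48 h, 7 at 72 h and 7 at 240 h, against 39.4%, 64.7% and 50.2% of all genes. The median log2 fold change of the 10 subunits was 0.15, 0.19 and -0.05, against 0.01, 0.01 and -0.00 over all genes. Without 240 h ctrl replicate 3 the 240 h value of Cbx6 was -0.62, and with the 240 h ctrl libraries as control of the 72 h kd libraries that of Pcgf1 was 0.77.

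The comparisons that did not enter the choice of genes could be tested, although they share libraries with those that did. Between 240 h and 48 h ctrl cells, Bmi1 differed by 0.03 on the log2 scale (SE 0.13, adjusted p = 0.898, limma), a difference smaller than the spread between libraries, and its sign depended on the libraries used. None of the 10 subunits was called between these ctrl groups by limma on FPKM or by limma voom on reads, where 0.475% and 1.38% of all genes were. By the adjusted p-value alone the count was also 0, against 3.44% of all genes, while 2 subunits, Pcgf1 and Pcgf6, had an unadjusted p-value under 0.05, against 26.5% of all genes. The all-gene count behind 0.475% was 54, and with any 1 library left out it was 2 to 10. From 48 h to 72 h of knockdown, Bmi1 was higher by 0.31 (SE 0.07, adjusted p = 0.0185, limma), which is below the fold threshold, and the adjusted p reached 0.0699 without 72 h kd replicate 3. From 72 h to 240 h of knockdown it differed by -0.21 (SE 0.08, adjusted p = 0.0640, limma), with adjusted p-values between 0.0175 and 0.225 over the other settings.

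Between 72 h and 48 h kd cells 0 of the 10 subunits passed both thresholds by limma on FPKM, against 7.45% of all genes, and 0 by voom on reads, against 6.50% of all genes higher and 6.55% lower. Of the 10, 5 had an unadjusted p-value under 0.05 on FPKM, against 47.1% of all genes. Passing the adjusted p-value alone were 3 of 10 (Bmi1, Pcgf1 and Cbx6), against 35.5% of all genes. Between 240 h and 72 h kd cells 1 of 10, Pcgf1, passed both thresholds by either method, against 15.7% of all genes on FPKM and 25.4% on reads, and 7 of 10 passed the adjusted p-value alone, against 59.5% of all genes. All 10 had an unadjusted p-value under 0.05 there, against 64.1% of all genes.

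The other PCGF subunits were measured beside Bmi1. Pcgf1 (chr6:83077869-83080855), which forms a variant complex with Bcor and with Kdm2b, a protein that binds unmethylated CpG islands, was 1.98, 2.20 and 2.39 FPKM in 48 h ctrl, 2.47, 2.51 and 2.78 FPKM in 48 h kd, and 3.01, 3.36 and 3.05 FPKM in 72 h kd libraries. At 240 h it was 1.75, 1.82 and 1.80 FPKM in ctrl and 1.80, 1.78 and 2.36 FPKM in kd libraries. Kd libraries lay above ctrl libraries at 48 h and 72 h and overlapped them at 240 h, where a single kd library was high. The log2 fold changes against ctrl were 0.23 (SE 0.08), 0.50 (SE 0.08) and 0.13 (SE 0.11). Between 72 h and 240 h of knockdown Pcgf1 fell by 0.65 on the log2 scale (SE 0.12, adjusted p = 0.00497, limma), and every 240 h kd library was below every 72 h kd library. This call ended with a pseudocount of 1 FPKM (-0.48) and after rescaling to TPM (-0.57).

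Pcgf2 (chr11:97688823-97700497), the closest relative of Bmi1, was present at 8.90 to 9.31 FPKM in 48 h ctrl, 9.04 to 10.0 FPKM in 48 h kd and 8.99 to 9.04 FPKM in 72 h kd libraries. At 240 h the ctrl libraries held 10.6, 9.54 and 9.31 FPKM and the kd libraries 8.50, 7.84 and 8.11 FPKM. Only at 240 h did kd and ctrl libraries of Pcgf2 not overlap, with a log2 fold change of -0.27 (SE 0.06), whereas the differences at 48 h and 72 h were 0.07 (SE 0.05) and -0.02 (SE 0.03). Pcgf6 (chr19:47033617-47050906), the PCGF protein of the complex that silences germline genes, was 5.75 to 5.90 FPKM in 48 h ctrl and 5.40 to 5.56 FPKM in 240 h ctrl libraries. In kd libraries it was 6.39 to 6.75 FPKM at 48 h, 6.02 to 6.66 FPKM at 72 h and 6.92 to 7.11 FPKM at 240 h. Pcgf6 was thus higher in every kd library, by 0.18 (SE 0.04), 0.13 (SE 0.04) and 0.35 (SE 0.03) on the log2 scale.

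**Figure D3:**
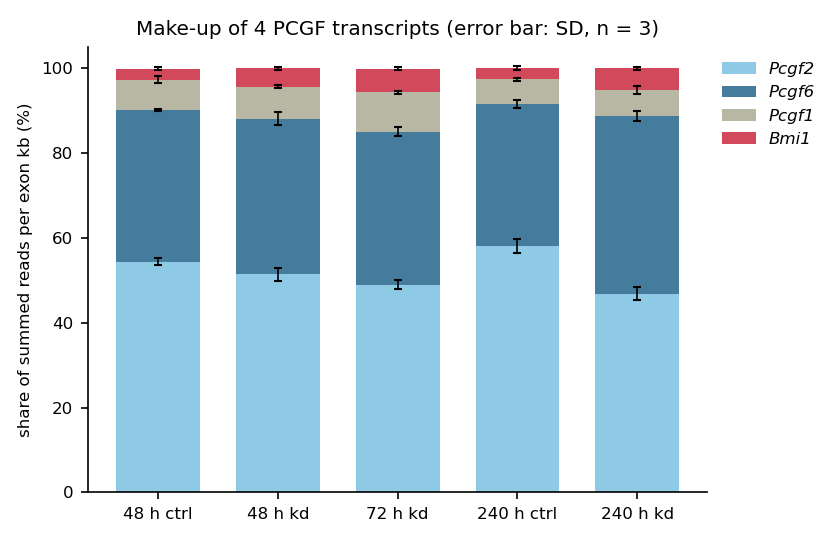
Share of each of 4 PCGF transcripts in their summed reads per kilobase of exon (vertical axis, %), by group; error bars are the SD of 3 libraries. Bmi1, on top, takes 2.59% and 2.66% in the ctrl groups and 4.35% to 5.58% in the kd groups.

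Because PCGF proteins compete for the same RING partners, the make-up of the 4 PCGF transcripts among the selected subunits was computed per library from reads per kilobase of exon. Pcgf3 and Pcgf5, which were not selected, are left out of these shares. Bmi1 made up 2.68%, 2.27% and 2.82% of the sum of Bmi1, Pcgf1, Pcgf2 and Pcgf6 in 48 h ctrl libraries and 2.23%, 3.21% and 2.55% in 240 h ctrl libraries. Its share was 4.42%, 4.64% and 3.99% at 48 h kd, 5.22%, 5.67% and 5.86% at 72 h kd and 4.68%, 4.89% and 5.52% at 240 h kd, above all ctrl libraries. The mean shares of Pcgf2 in ctrl and kd cells were 58.0% ± 1.66 and 46.8% ± 1.51 (SD, n = 3) at 240 h, and those of Pcgf6 33.6% ± 0.967 and 41.9% ± 1.26. Bmi1 thus remained the smallest of these 4 transcripts in each group, and the ratio of Bmi1 to Pcgf2 was 0.0476 ± 0.00589 in 48 h ctrl and 0.114 ± 0.00657 in 72 h kd cells (SD, n = 3). With Pcgf3 and Pcgf5 in the sum, the mean Bmi1 share was 2.19% and 2.25% in ctrl cells of 48 h and 240 h and 3.71%, 4.67% and 4.19% in kd cells in order of time. Of these 6, Pcgf5 was the smallest in each group (0.999% to 1.43%) and Pcgf3 lay above Pcgf1 (13.8% to 15.3%) on this scale. By mean FPKM over the whole span, Pcgf3 lay below Pcgf1 in 48 h ctrl, 48 h kd and 72 h kd cells. The values were 1.97 against 2.19, 2.09 against 2.59 and 2.29 against 3.14 FPKM. In both 240 h groups Pcgf3 lay above Pcgf1 by FPKM too. Computed from FPKM over the whole span, the mean Bmi1 share was 3.36% for 48 h ctrl, 5.60% for 48 h kd, 7.05% for 72 h kd, 3.49% for 240 h ctrl and 6.53% for 240 h kd cells.

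The ubiquitin ligases showed small differences. Rnf2 (chr1:151458004-151500955), the main H2A ligase of embryonic stem cells, was 3.49, 3.54 and 3.37 FPKM in 48 h ctrl and 3.43, 3.44 and 3.69 FPKM in 48 h kd libraries, which overlapped. It was 3.12, 3.15 and 3.29 FPKM in 72 h kd libraries, below the 48 h ctrl libraries, and at 240 h 3.43, 3.20 and 3.23 FPKM in ctrl against 2.88, 3.07 and 2.96 FPKM in kd libraries. The log2 fold changes of Rnf2 were 0.02 (SE 0.04), -0.12 (SE 0.03) and -0.14 (SE 0.04). Its span shares 158 bases with Trmt1l on the other strand. Ring1 (chr17:34020792-34024680), the second ligase, had 93 to 162 reads per library and overlapped between kd and ctrl at each time, with log2 fold changes of 0.18 (SE 0.10), 0.26 (SE 0.13) and -0.05 (SE 0.04).

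Among the chromobox subunits, Cbx6 (chr15:79823896-79834688), a chromodomain protein, was lower in every kd library than in its ctrl libraries. It was 8.23, 7.64 and 8.08 FPKM in 48 h ctrl, 6.90, 7.10 and 6.87 FPKM in 48 h kd and 5.67, 5.77 and 5.58 FPKM in 72 h kd libraries. At 240 h it was 8.39, 7.97 and 6.98 FPKM in ctrl and 5.10, 5.40 and 5.37 FPKM in kd libraries. The log2 fold changes were -0.19 (SE 0.04), -0.48 (SE 0.04) and -0.54 (SE 0.07), that is 0.872, 0.711 and 0.680 times the ctrl mean. The 72 h kd libraries were also below the 48 h kd libraries, by a log2 difference of -0.29 (SE 0.03, adjusted p = 0.00318, limma), which does not reach the fold threshold. Of the Cbx6 span, 95.8% (10342 bases) is shared with Npcd on the same strand, and Npcd had log2 fold changes of -0.17, -0.36 and -0.44, so that reads of both genes cannot be told apart.

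Cbx7 (chr15:79915807-79971119), the main CBX protein of canonical PRC1 in self-renewing embryonic stem cells, was 4.53, 4.26 and 4.30 FPKM in 48 h ctrl and 4.92, 6.40 and 5.07 FPKM in 48 h kd libraries. The high value of Cbx7 came from 48 h kd replicate 2, and the log2 fold change was 0.31 (SE 0.11) with this library and 0.19 (SE 0.04) without it. At 72 h kd Cbx7 was 5.29, 5.48 and 5.18 FPKM, with a log2 fold change of 0.28 (SE 0.04), and at 240 h kd and ctrl libraries overlapped (-0.04, SE 0.09). Cbx7 was lower at 240 h kd than at 72 h kd by -0.21 (SE 0.06, adjusted p = 0.0246, limma), below the fold threshold. Its span shares 100 bases with Apobec3 on the other strand, which had log2 fold changes of -0.37, -0.56 and -1.05.

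Phc1 (chr6:122317731-122340561), a polyhomeotic protein whose SAM domain can join PRC1 complexes into clusters, differed in sign between times. Its level was 25.4, 24.1 and 24.2 FPKM in 48 h ctrl, 25.9, 27.1 and 27.1 FPKM in 48 h kd and 29.5, 28.4 and 29.1 FPKM in 72 h kd libraries. At 240 h Phc1 was 24.0, 24.1 and 23.3 FPKM in ctrl and 22.4, 21.6 and 21.9 FPKM in kd libraries. No kd library overlapped its controls: all were higher at 48 h and 72 h (log2 fold changes 0.12, SE 0.04, and 0.24, SE 0.03) and all were lower at 240 h (-0.12, SE 0.03). Within kd cells, Phc1 was lower at 240 h than at 72 h by -0.40 on the log2 scale (SE 0.03, adjusted p = 0.000134, limma), again below the fold threshold. Rybp (chr6:100228565-100287485), the defining subunit of variant PRC1, overlapped between kd and ctrl at 48 h and 72 h (-0.09, SE 0.06, and -0.01, SE 0.06). At 240 h Rybp was 1.30, 1.32 and 1.24 FPKM in ctrl and 1.34, 1.41 and 1.39 FPKM in kd libraries, with a log2 fold change of 0.10 (SE 0.04). Rybp was higher at 240 h kd than at 72 h kd by 0.19 (SE 0.05, adjusted p = 0.0173, limma), below the fold threshold, and its span holds 3 further listed genes, Gm18422, Gm44045 and Gm44044.

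Ranked by reads per kilobase of exon, scaled to library size, a scale that counts intronic reads too and so raises genes with long introns, Phc1 led in each group (106 ± 3.08, SD, n = 3, in 48 h ctrl cells). It was followed in 48 h ctrl by Cbx7 with 37.2 ± 1.23 and Rnf2 with 36.1 ± 0.916, whose libraries overlapped, then by Pcgf2 with 30.4 ± 0.779, Pcgf6 with 20.0 ± 0.265, Rybp with 15.1 ± 0.903 and Cbx6 with 8.12 ± 0.311. The lowest were Pcgf1 with 3.97 ± 0.379, Ring1 with 2.90 ± 0.318 and Bmi1 with 1.44 ± 0.152, each without overlap with the next. In 72 h kd cells Bmi1 reached 3.40 ± 0.204 and overlapped Ring1 at 3.50 ± 0.529, and Cbx6 at 5.77 ± 0.0943 overlapped Pcgf1 at 5.69 ± 0.348. In 240 h kd cells Pcgf1, Bmi1 and Ring1 followed at 3.59 ± 0.597, 2.90 ± 0.290 and 2.77 ± 0.120 with overlap between neighbours. From the top, the order was Phc1, Cbx7, Rnf2, Pcgf2, Pcgf6, Rybp and Cbx6 in each of the 5 groups, with overlap of Rnf2 and Pcgf2 in 240 h ctrl cells. By FPKM over the whole span the order was another. In 48 h ctrl cells Cbx6 (7.98 FPKM) lay above Cbx7 (4.36 FPKM), and Rybp (1.21 FPKM) lay below Ring1 (2.42 FPKM). In 72 h kd cells Bmi1 (1.41 FPKM) lay above Rybp (1.20 FPKM).

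**Figure D4:**
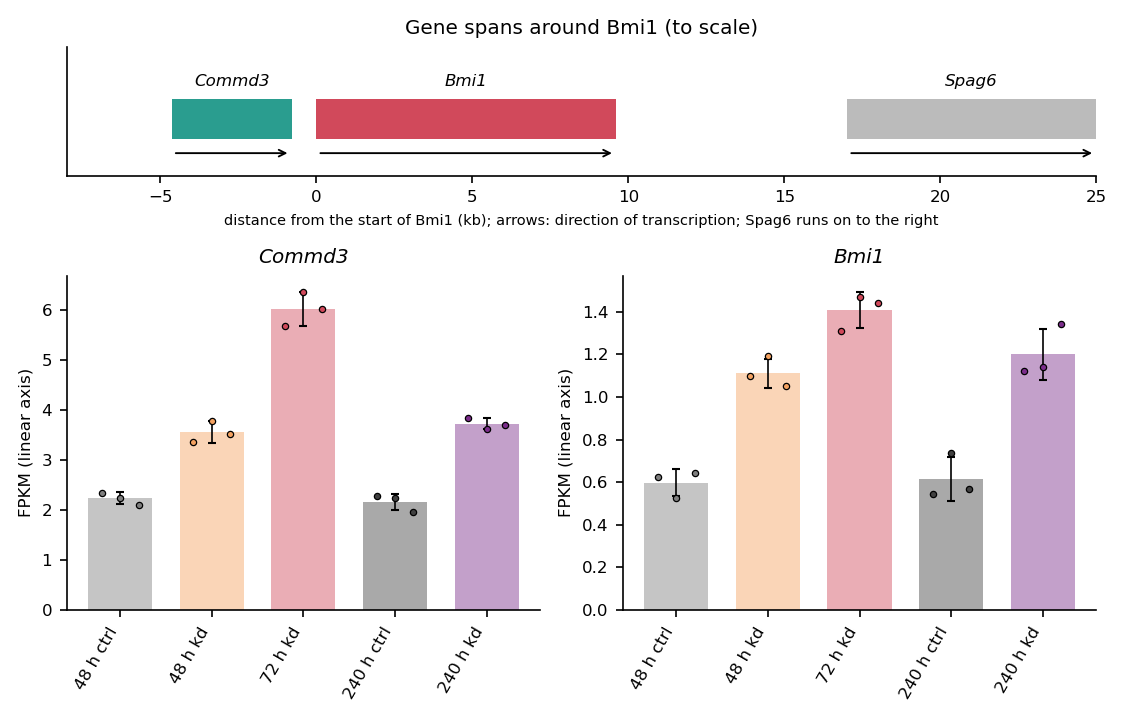
Gene spans around Bmi1 (top, distance from its start in kb, to scale) and FPKM of Commd3 and Bmi1 by group (bottom, linear axes; points are libraries, bars the mean, error bars the SD of 3 libraries). Commd3 ends 786 bases before Bmi1 starts, and both are lowest in the ctrl groups and highest at 72 h kd, where Commd3 reaches 5.69 to 6.37 FPKM.

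The neighbours of Bmi1 were examined because the selection did not use them. Commd3 (chr2:18672384-18676231, plus strand), a COMM domain protein of endosomal cargo sorting, ends 786 bases upstream of Bmi1 and is read in the same direction. It was 2.35, 2.25 and 2.11 FPKM in 48 h ctrl, 3.36, 3.79 and 3.52 FPKM in 48 h kd and 5.69, 6.37 and 6.03 FPKM in 72 h kd libraries. At 240 h it was 2.28, 2.24 and 1.97 FPKM in ctrl and 3.84, 3.63 and 3.70 FPKM in kd libraries. Commd3 rose in each kd comparison by limma. It differed by 0.65 on the log2 scale at 48 h (SE 0.06, adjusted p = 0.00356), 1.39 after 72 h (SE 0.06, adjusted p = 5.4e-05) and 0.76 after 240 h (SE 0.06, adjusted p = 0.000636), without overlap between kd and ctrl libraries. Within kd cells it rose by 0.75 from 48 h to 72 h (adjusted p = 0.00156, limma) and fell by 0.68 from 72 h to 240 h (adjusted p = 0.000184, limma). The test of a different knockdown effect on Commd3 at 240 h and at 48 h gave 0.12 (SE 0.09, adjusted p = 0.434, limma). With a pseudocount of 1 FPKM the 48 h call (0.49) and the call between 240 h and 72 h kd (-0.57) were lost, and over the other settings the highest adjusted p of Commd3 was 0.0381 at 48 h, 0.00260 at 72 h and 0.00653 at 240 h.

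From reads, the balance of both neighbours was computed. Per library, the ratio of Bmi1 reads to Commd3 reads averaged 0.668 ± 0.0890 and 0.713 ± 0.112 for ctrl cells of 48 h and 240 h (SD, n = 3). For kd cells the ratio was 0.783 ± 0.0361 after 48 h, 0.582 ± 0.0132 after 72 h and 0.805 ± 0.0889 after 240 h (SD, n = 3). The 72 h kd ratios (0.575, 0.574 and 0.597) lay below those of the 48 h and 240 h kd libraries and, apart from 0.597, just below the range of the ctrl libraries (0.583 to 0.821). Whether transcripts of Commd3 that run on into Bmi1 add to its reads was not tested. Downstream, Spag6, a sperm flagellum gene that starts 7402 bases past the end of Bmi1, had at most 2 reads in any library.

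Across the 15 libraries, the genes whose log2(FPKM + 0.1) followed Bmi1 most closely among 9055 genes (0.5 FPKM or more on average, without predicted genes and pseudogenes) were Zfp36 (Pearson r = 0.979), Igdcc4 (0.969), Homer3 (0.967), Npr1 (0.964) and Pus7 (0.962). Commd3 ranked 87 with r = 0.927. The libraries share groups, and r is given without a test. Since these 5 genes were chosen for their likeness to Bmi1, which was itself selected for being higher in kd cells, their log2 fold changes at 48 h, 72 h and 240 h are a description. Homer3, a postsynaptic scaffold protein, had values of 0.95, 1.54 and 1.02, and Npr1, a natriuretic peptide receptor, 1.10, 1.63 and 1.35. For Igdcc4 they were 0.79, 1.21 and 0.95. Zfp36, which promotes decay of mRNAs with AU-rich elements, had values of 0.56, 0.70 and 0.61, and Pus7, a pseudouridine synthase, 0.18, 0.26 and 0.17. With a pseudocount of 1 FPKM, 4 of these 5 genes remained among the 5 closest. The spans of Zfp36, Homer3 and Npr1 overlap Gm44710, Ddx49 and Gm16048, and their reads cannot be told apart there.

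Another 37 genes of PRC1 and of the opposing H2A deubiquitinases were examined, 8 core subunits, 23 accessory subunits and 6 deubiquitinase genes. By limma on FPKM 0 of the 25 or 26 that could be tested passed both thresholds in any of the 3 kd comparisons, while 8, 15 and 12 had an unadjusted p-value under 0.05 at 48 h, 72 h and 240 h, against 31.9%, 60.8% and 44.9% of all genes. Their median log2 fold change was -0.04, -0.05 and -0.00. By the adjusted p-value alone 2 of 25 passed at 48 h, 14 of 26 at 72 h and 9 of 26 at 240 h, against 16.1%, 55.0% and 33.8% of all genes, shares that lay below or near those of all genes. Among them at each time was Wdr5, a WD repeat protein shared by Pcgf6 complexes and H3K4 methyltransferases, at 15.4, 12.1 and 11.2 FPKM in 48 h ctrl, 48 h kd and 72 h kd cells and 15.3 and 11.1 FPKM in 240 h ctrl and kd cells. Its log2 fold changes were -0.35, -0.46 and -0.46 (adjusted p = 0.0177, 0.000306 and 0.000763, limma), below the fold threshold. Among core subunits, Pcgf3 was 0.21 and 0.17 higher at 72 h and 240 h (adjusted p = 0.00743 and 0.0169, limma), while Cbx2, a chromobox protein, was lower at 72 h, with 4.97 FPKM in ctrl and 4.22 FPKM in kd cells (-0.23, adjusted p = 0.00162, limma). Phc2, which is also in the counts of 14 and 9, had 0.459 and 0.439 FPKM in ctrl cells of 48 h and 240 h and 0.654 and 0.586 FPKM in kd cells of 72 h and 240 h. It met the minimum of 0.5 FPKM only through the kd libraries, and no p-value is given for it.

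The minimum of 0.5 FPKM leaves out long genes, since FPKM was computed over introns too, and limma voom on the recovered reads tested 35 or 36 of the 37 genes. There, 2 were called in each kd comparison, 1 higher and 1 lower, against 9.32%, 22.5% and 18.1% of all genes at 48 h, 72 h and 240 h. Bcor, the corepressor that holds Pcgf1 in its variant complex, had 970, 667 and 712 reads in 48 h ctrl, 303, 341 and 291 reads in 48 h kd and 257, 220 and 268 reads in 72 h kd libraries. At 240 h Bcor had 865, 846 and 952 reads in ctrl and 380, 410 and 368 reads in kd libraries. Bcor changed by -1.25, -1.75 and -1.35 on the log2 scale (SE 0.08, 0.08 and 0.06), with adjusted p-values of 3.4e-07, 6.6e-17 and 1.2e-11 (limma voom), which left 0.421, 0.300 and 0.396 times the ctrl FPKM. Its relative Bcorl1 was called higher at 48 h and 72 h, by 0.63 and 0.80 (adjusted p = 0.000221 and 6.1e-09, limma voom), and at 240 h was 0.41 higher, below the fold threshold.

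Scmh1, a polycomb protein with a SAM domain, was called at 240 h alone. The 48 h ctrl libraries had 365 to 473 reads of it, those of 48 h kd 315 to 370, those of 72 h kd 447 to 453 and those of 240 h ctrl 353 to 398, but the 240 h kd libraries had 989, 1091 and 1102 reads. Its log2 fold changes were -0.21, 0.05 and 1.35, and the difference between the knockdown effects at 240 h and 48 h was itself called, at 1.56 (SE 0.09, adjusted p = 2.3e-09, limma voom), where 10.6% of all genes tested were called for that difference. On reads, 3 of 36 genes were called for that difference, Scmh1, Mga and Asxl3. Asxl3 stood at -0.65 and was called in only 4 of 12 fits with a library left out. On FPKM, where 5.82% of all genes were called for the difference between times, Mga, the DNA-binding protein of the Pcgf6 complex, was the only 1 of the 25 tested with a difference past both thresholds. Mga was 3.71 ± 0.272 and 4.38 ± 0.411 FPKM in ctrl and kd cells at 48 h and 4.61 ± 0.389 and 3.58 ± 0.200 FPKM at 240 h (SD, n = 3). The difference of its log2 fold changes was -0.59 (SE 0.12, adjusted p = 0.00895, limma), and 6 of the 25 genes had an unadjusted p-value under 0.05, against 29.2% of all genes. Without 48 h kd replicate 2, 48 h ctrl replicate 3, 240 h ctrl replicate 1, 240 h kd replicate 2 or 240 h kd replicate 3, it lay between -0.51 and -0.57, short of the fold threshold. The call of Mga was lost too with a pseudocount of 1 FPKM (-0.48), after rescaling to TPM (-0.55) and after centring on the median (-0.58). Between 240 h and 72 h kd cells 1 of 26 genes was called on FPKM, where 15.7% of all genes were, and 3 of 36 on reads, where 25.4% were. The gene called on FPKM, Kdm2b, which carries the variant complex of Pcgf1 to CpG islands, rose by 0.62 (adjusted p = 0.000239, limma), a call that was lost with a pseudocount of 1 FPKM (0.33). Kdm2b was 0.713 FPKM at 72 h kd and 1.15 FPKM at 240 h kd, and the ctrl cells held 0.891 FPKM at 48 h and 1.07 FPKM at 240 h. The span of Kdm2b overlaps Rnf34, Gm43411, Gm44574 and A930024E05Rik, and shared reads cannot be told apart.

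**Figure D5:**
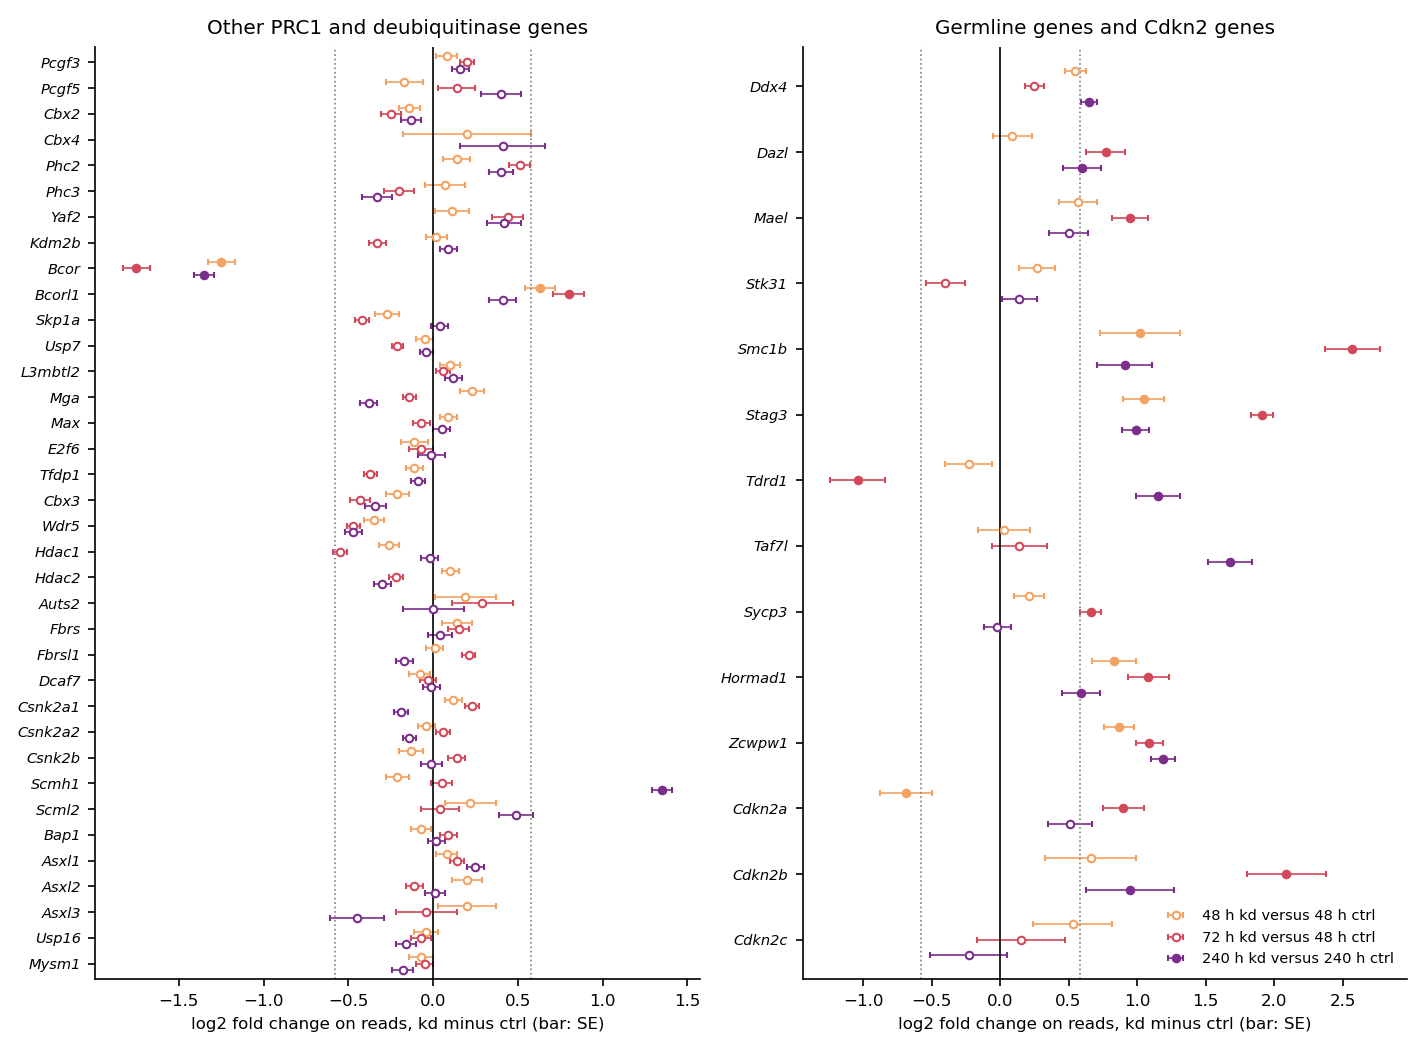
Log2 fold changes on reads (kd minus ctrl, horizontal axis; bars are SE) of the other PRC1 and deubiquitinase genes (left) and of germline and Cdkn2 genes (right) at 3 times; filled points passed both thresholds and dotted lines mark 0.58 in either direction. Bcor lies at -1.25, -1.75 and -1.35, and Stag3, Zcwpw1, Smc1b and Hormad1 are filled on the right at each time, while Cdkn2b was tested only through its kd libraries.

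The Cdkn2 genes, cell cycle inhibitors among which Cdkn2a is the textbook target of Bmi1, were too low for the FPKM minimum in the kd comparisons and were tested on reads. Cdkn2a had 39 to 62 reads in the ctrl libraries of 48 h and 45 to 61 in those of 240 h. Kd libraries had 27 to 31 reads of it after 48 h, 89 to 107 after 72 h and 71 to 87 after 240 h. Cdkn2a was called lower at 48 h (-0.69, SE 0.19, adjusted p = 0.0179, limma voom) and higher at 72 h (0.90, SE 0.15, adjusted p = 1.2e-05, limma voom), and at 240 h had a value of 0.51 (adjusted p = 0.0144, limma voom). Cdkn2b had 7 to 11 reads in the 48 h ctrl libraries against 12 to 18 after 48 h and 38 to 54 after 72 h of knockdown, and at 240 h 6 to 12 reads in ctrl and 16 to 24 reads in kd libraries. With log2 differences of 2.09 at 72 h and 0.95 at 240 h, it met the minimum of 10 reads only through the kd libraries, so that only a higher level could be called and its calls are not read as a result. The 48 h call of Cdkn2a was lost without 48 h ctrl replicate 1 or 3 or 48 h kd replicate 3 (-0.60 to -0.68). Cdkn2c, with 9 to 21 reads, was not called at any time (0.53, 0.15 and -0.23).

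Of 12 germline genes that the Pcgf6 complex is known to hold silent in embryonic stem cells, 11 could be tested on reads, with 4 called higher at 48 h, 7 higher and 1 lower at 72 h and 8 higher at 240 h, against 9.32%, 22.5% and 18.1% of all genes called in either direction. Their median log2 fold change was 0.55, 0.77 and 0.65, against 0.00, 0.00 and -0.01 over all genes. This list was chosen with earlier results of these data known. Its counts, medians and p-values therefore describe these libraries and are no independent test of the germline genes as a set. Stag3, a meiotic cohesin subunit, had 222, 162 and 152 reads in 48 h ctrl, 294, 472 and 309 in 48 h kd and 730, 723 and 710 in 72 h kd libraries, with log2 fold changes of 1.05, 1.91 and 0.99 (adjusted p = 0.000294, 2.4e-17 and 3.5e-07, limma voom). Its highest 48 h kd value came from replicate 2, without which the 48 h value was 0.85 (adjusted p = 3.3e-08, limma voom). Smc1b, a further meiotic cohesin, rose at 72 h, when kd libraries had 130 to 137 reads of it and the ctrl libraries 16 to 29 (2.57, SE 0.20, adjusted p = 8.2e-12, limma voom). At 48 h kd Smc1b had 37, 62 and 28 reads and was called at 1.02, and at 0.73 without replicate 2 (adjusted p = 0.0363, limma voom), but the 48 h call was lost without 48 h ctrl replicate 2 or 3 (0.99 and 0.90). Hormad1, a protein of the meiotic chromosome axis, and Zcwpw1, a reader of meiotic histone marks, were also called higher at each time, by 0.83, 1.08 and 0.59 and by 0.87, 1.09 and 1.19. The 240 h call of Hormad1 was lost without 240 h ctrl replicate 1 or 2 or 240 h kd replicate 3, at 0.52 to 0.55.

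Of the other germline genes tested on reads, 6 were called at 1 or 2 of the 3 times, and Stk31, a testis kinase, at none (0.27, -0.40 and 0.14). Tdrd1, of the piRNA pathway, was called lower at 72 h (-1.04, adjusted p = 7.9e-05, limma voom) and higher at 240 h (1.15, adjusted p = 1.4e-05, limma voom). Taf7l, a testis TFIID subunit, had 29 to 55 reads in all other groups and 116 to 130 reads at 240 h kd (1.68, adjusted p = 1.5e-07, limma voom). Dazl, a germ cell RNA-binding protein, was called higher at 72 h and 240 h (0.77 and 0.60, the latter lost without 240 h ctrl replicate 1 or 240 h kd replicate 3), Mael of the piRNA pathway and Sycp3 of the synaptonemal complex at 72 h (0.95 and 0.66) and the RNA helicase Ddx4 at 240 h (0.65). Sycp3, Zcwpw1 and Smc1b overlap Chpt1, Pilra and Gm10923, and their shared reads cannot be told apart. By limma on FPKM 3 to 5 of the 12 genes could be tested, with 1, 4 and 2 called at 48 h, 72 h and 240 h. Of these, Stag3, Zcwpw1 and Dazl averaged under 0.5 FPKM in their ctrl libraries (0.321 to 0.485 FPKM) and met the minimum only through the kd libraries, which fixed their direction, and nothing is read from their calls. Sycp3, at 1.23 FPKM in 48 h ctrl and 1.96 FPKM in 72 h kd cells, did not depend on the minimum and rose at 72 h (0.63, adjusted p = 0.000270, limma), a call that was lost with a pseudocount of 1 FPKM (0.41).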

How the data were processed

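RNA-seq was performed on 15 libraries of 81K1 mESC. The authors aligned single-end reads to mm10 (GRCm38.p6) with STAR 2.7.0c, counted reads per gene with GenomicRanges and Rsamtools and tested counts with DESeq2 1.30.0 in R 4.0.3. The deposited values are FPKM per gene; which gene models they rest on is not given in the sources used here (GENCODE M23 is named for ChIP-seq peaks alone, not used here), and 96.5% of 55228 genes matched GENCODE M21, which gave identifiers and strand. Multiplied by gene span and 1 total per library, 100% of values above 0 were whole reads (tolerance 0.001), counted over whole spans irrespective of strand. Summed over genes they exceeded the totals by 7.38% to 8.34%, and overlapping genes are uncertain.

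Groups were taken from the sample labels. As main test, limma 3.58.1 was run under R 4.3.3 (lmFit, eBayes with a trend, two-sided) on log2(FPKM + 0.1). Genes averaging 0.5 FPKM or more over the 6 libraries of a comparison (12 for the difference between times) entered, with Benjamini-Hochberg adjustment over all genes tested. Calls required both an adjusted p-value below 0.05 and a log2 fold change beyond 0.58 in either direction. Permuting 3 against 3 libraries, whose smallest two-sided exact p is 0.100, was not used. Recovered reads were tested with limma voom, scaled by trimmed means of M values, where genes averaged 10 reads or more. The scripts were tested on simulated data. Replicate numbers did not pair the samples. The named genes are the 10 subunits, Smarcb1, the neighbours within 25 kb of Bmi1, overlapping genes, called genes of the lists, the Cdkn2 genes and the 5 genes most correlated with Bmi1. The subunits and the gene lists were chosen with earlier results of these data known. Phc2, Pcgf3, Cbx2 and Wdr5 and genes called on reads alone were named after their values were seen. Alternatives were other pseudocounts (1 and 0.01), other minimum levels (none and 2 FPKM), TPM brought to the mean summed FPKM, quantile normalization, median centring, no trend, a single fit of all libraries, the replicate number as a block, 240 h ctrl as control for 72 h kd and leaving out each library. The germline counts, Commd3, leaving out each library in the tests on reads and the share over 6 PCGF genes were added to the alternatives after seeing the data.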

Additional observations from a re-analysis of the deposited data

Results flagged for a closer look

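Phc1 was drawn out because its libraries moved in opposite directions at different times. Its log2 fold change was 0.12 at 48 h and 0.24 at 72 h, with every kd library above every ctrl library, and -0.12 at 240 h, with every kd library below. The difference between these times was not tested, since the kd comparisons had entered the choice of the subunits. The 48 h and 72 h values share their 3 ctrl libraries.

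For Mga the log2 fold change at 240 h minus that at 48 h was -0.59 (SE 0.12, adjusted p = 0.00895, limma, interaction over 12 libraries), with 3.71 and 4.38 FPKM in ctrl and kd cells at 48 h and 4.61 and 3.58 FPKM at 240 h. The difference was short of the fold threshold with a pseudocount of 1 FPKM (-0.48), after rescaling to TPM (-0.55) and after centring on the median (-0.58). On reads the same difference was -0.61 (SE 0.10, adjusted p = 0.000155, limma voom), and -0.54 to -0.57, short of the fold threshold, without 48 h ctrl replicate 3, 48 h kd replicate 2, 240 h ctrl replicate 1 or 240 h kd replicate 2. The ctrl groups of Mga themselves differed by 0.31 between 240 h and 48 h (adjusted p = 0.0910, limma).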

How the results depend on the processing

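With each library left out in turn, the log2 fold change of Bmi1 in the kd comparisons, on which it was selected, was 0.73 to 0.85 at 48 h, 1.04 to 1.16 at 72 h and 0.79 to 0.98 at 240 h. Of 166 recomputed values for Bmi1, Pcgf1 and Commd3, 157 kept their direction and their side of the thresholds or stayed within the spread. This tally did not set apart the kd comparisons on which Bmi1 was selected. It describes the settings and is no test of Bmi1 in those comparisons. A pseudocount of 1 FPKM gave Bmi1 0.41, 0.59 and 0.45, and a pseudocount of 0.01 gave 1.23 at 72 h. The difference of Bmi1 between the ctrl groups ranged from -0.08 to 0.10 with single libraries left out and was below 0 without 48 h ctrl replicate 2 (-0.04) or 240 h ctrl replicate 2 (-0.08).

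The count of subunits called, 1 in each kd comparison, became 3, 7 and 5 with no fold threshold, 0 in each with a minimum of 2 FPKM, under which Bmi1 was not tested, 0 at 48 h and at 240 h with a pseudocount of 1, and 2 at 72 h with the 240 h ctrl as control. Leaving out libraries gave 1 to 2 at 240 h. Between 72 h and 48 h kd 3, and between 240 h and 72 h kd 7, were called with no fold threshold, and the latter count was 0 with a pseudocount of 1 and after rescaling to TPM, where Pcgf1 stood at -0.48 and -0.57.

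For the other PRC1 genes the counts of 0 became 2, 14 and 9 with no fold threshold, 1, 2 and 2 with no minimum, and 2, 2 and 2 on reads. For the difference between 240 h and 48 h the count of 1 became 4 with no fold threshold, 2 with no minimum, 3 on reads and 0 with a pseudocount of 1, after rescaling to TPM and after centring on the median, and leaving out libraries gave 0 to 1. The germline counts of 1, 4 and 2, in which only Sycp3 at 72 h did not depend on kd libraries to meet the minimum, became 0, 1 and 0 with a pseudocount of 1, 0 at each time with a minimum of 2 FPKM, and 4, 8 and 8 on reads. With no minimum they were 7 at 72 h and 4 at 240 h, and with no fold threshold 2 at 48 h. Leaving out libraries gave 0 to 1 at 48 h (0 without 48 h ctrl replicate 1, 2 or 3 or 48 h kd replicate 3), 2 to 4 at 72 h and 1 to 2 at 240 h. The cause of these shifts was not tested, beyond the number of genes that a minimum admits.

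Replicate numbers are shared between groups, but same-numbered libraries did not deviate together (correlations of -0.10 to 0.14), so they share only a number. With the replicate number as a block the 48 h counts of called subunits and of germline genes were 0 and 0, Bmi1 stood at 0.80 (SE 0.11), and 285 genes in place of 456 were called at 48 h. In all genes, 456, 1548 and 1016 calls in the kd comparisons became 208, 745 and 541 with a pseudocount of 1, 208, 768 and 453 with a minimum of 2 FPKM, 1844, 6290 and 3848 with no fold threshold, and 1502, 3629 and 3003 on reads; with no minimum 2500 were called at 72 h and 1768 at 240 h. The 54 calls between the ctrl groups became 0 under the block, with 3384 genes at an unadjusted p-value under 0.05, 151 after rescaling to TPM, 103 in 1 fit of all libraries, 31 without a trend, 27 with a pseudocount of 1, 32 with a minimum of 2 FPKM, 391 with no fold threshold and 224 on reads, and 2 to 10 with any 1 library left out (7, 4 and 2 without 48 h ctrl replicates 1 to 3, and 3, 10 and 4 without those of 240 h ctrl). In the same order, pseudocount of 1, minimum of 2 FPKM, no fold threshold and reads, 857 calls between 72 h and 48 h kd became 365, 407, 4081 and 2101, 1803 between 240 h and 72 h kd became 882, 888, 6820 and 4208, and 664 for the difference between times became 333, 324, 1778 and 1737, while no minimum gave 2841 and 1051 for the latter pair. Rescaling to TPM moved the split of higher and lower calls from 479 and 378 to 627 and 305 between 72 h and 48 h kd, from 738 and 1065 to 967 and 823 between 240 h and 72 h kd and from 40 and 14 to 136 and 15 between the ctrl groups. Bmi1 rested on 56 to 184 reads per library, and how much of its spread was counting error was not separated. Without 240 h ctrl replicate 3, Cbx6 differed between the ctrl groups by 0.03 in place of -0.04.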
